A study of Mus musculus with 12 samples.

Results

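Cytoplasmic ribosomal protein genes were followed in hair follicle stem cells of mice with and without the transcription factor Foxc1. The genes were taken by name: every row of both count tables that starts with Rpl or Rps and a digit, plus Rpsa, Rplp0, Rplp1 and Rplp2, leaving out names with -ps (pseudogenes) and the Rps6k kinases. The rule found 90 of the 37931 gene names that both tables hold. They comprised 31 genes of the 40S subunit, 43 of the 60S subunit and 3 of the P stalk, which are called the 77 core genes here. The other 13 were 12 paralogues or gene copies and Rps19bp1, which codes for a protein that binds RPS19 and not for a ribosomal protein. Among the copies, RefSeq lists Rps3a2, Rps3a3 and Rps12l1 as pseudogenes and Rps4y2 as a transcribed pseudogene. The rule on -ps did not leave these out.

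Each ribosome joins a small subunit, which reads the mRNA, to a large subunit, which forms the peptide bond, and almost every ribosomal protein is present once in it. Cells therefore make these proteins in matched amounts, and their mRNAs are among the most abundant of most cells. Many carry a run of pyrimidines at the very 5′ end, the terminal oligopyrimidine (TOP) tract, through which mTORC1 signalling sets their translation. Hair follicle stem cells sit in the bulge and pass through growth (anagen) and rest (telogen), and quiescent cells of this kind are known for a low rate of protein synthesis.

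There were 4 groups and 12 poly(A)-selected RNA libraries. Early telogen KO mice (n = 4) and anagen KO mice (n = 2) carried K14-H2BGFP, K14Cre and Foxc1 fl/fl, and early telogen WT mice (n = 3) and anagen WT mice (n = 3) carried K14-H2BGFP and Foxc1 fl/fl without the Cre. All mice thus carried the floxed allele and the GFP reporter, and the K14 promoter acts in basal keratinocytes in general, so the deletion was not restricted to the stem cells. Cells of dissociated back skin were sorted as H2BGFP positive, Sca-1 negative, CD34 positive and CD49f positive. The early telogen mice are labelled as 47 days old, although KO replicate 5 is titled day 43. The anagen mice are labelled as 29 and 31 days old in the KO group and as 29, 30 and 43 days old in the WT group, where replicate 3, aged 43 days by its label, is titled day 31. Both anagen KO mice were female and 2 of the 3 anagen WT mice were male. The labels do not say that replicates of a group are separate animals, so p-values measure the spread between these libraries.

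Foxc1 itself had 0.206 to 3.11 CPM (counts scaled to a library total of 1000000 over all gene rows) in the 6 KO libraries and 34.6 to 116 CPM in the 6 WT libraries. All 11 bulge markers examined, among them Krt15, Cd34, Lhx2 and Sox9, were detected in every library. The libraries held 2662083 to 11821916 gene counts in early telogen and 29025553 to 54482469 in anagen, and each stage was deposited as its own table. Stage therefore cannot be told apart from table and depth, whereas KO and WT were compared within a table. Summed fibroblast markers reached 466 to 4981 CPM in early telogen KO and 259 to 1511 CPM in early telogen WT libraries. Summed immune markers reached 51.1 to 257 CPM in early telogen KO and 13 to 89.5 CPM in early telogen WT libraries, and none of the 7 fibroblast markers was at 0 anywhere.

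Sequence around the transcription start shows the feature that many of these mRNAs share and how far single genes depart from it. Of the 77 core genes, 57 matched an entry in the RefSeq promoter table (GRCm38.p6). A run of at least 8 C or T letters lay within 15 bases on either side of the annotated start in 43.9% of these 57, against 13.9% of all 27025 genes in that table. The lines below give 15 bases before and 15 after the start for genes whose mRNA levels are described further on, with the longest C or T run in capitals.
Rpl15, chr14:18270972-18271001, minus strand: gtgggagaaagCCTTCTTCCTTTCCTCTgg
Rpl14, chr9:120571502-120571531, plus strand: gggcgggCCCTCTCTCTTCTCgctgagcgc
Rpl22l1, chr3:28805493-28805522, plus strand: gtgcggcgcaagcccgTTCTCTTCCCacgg
Rps6, chr4:86857353-86857382, minus strand: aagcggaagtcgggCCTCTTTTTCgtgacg
Rpl24, chr16:55966260-55966289, plus strand: agaaagCTgttgctaggaaacagactgggc
The run was 17 letters long in Rpl15, 14 in Rpl14, 10 in Rpl22l1 and in Rps6, and 2 in Rpl24. The 5 genes printed were picked after their values were seen, and an annotated start may differ from the start used in these cells. Among other genes looked at, the run was 11 in Rpl4, 9 and 4 at the annotated starts of Rps27l, 6 in Rpl37 and Rps2, and 3 in Rps3. A short run was thus not particular to Rpl24. Over the whole 300-base window and both strands, CCGGAAG, the core letters that ETS factors such as GABP bind, was found in 42.1% of the 57 promoters and in 9.93% of all genes. GGGCGG, the SP1 core, was found in 61.4% of the 57 against 38.2% of all genes, and TATAAA in 10.5% against 15.7%.

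The 90 genes together took between 4.85% and 11.1% of all gene counts in the 12 libraries. In early telogen KO libraries the share was 5.91% in replicate 1, 8.06% in replicate 2, 5.32% in replicate 3 and 7.79% in replicate 5. In early telogen WT libraries it was 5.46%, 4.85% and 5.50% in replicates 1, 3 and 4. KO replicates 1, 2 and 5 lay above all 3 WT libraries, and KO replicate 3 lay within their range. In anagen the share was 8.94% and 8.43% in the KO libraries and 9.21%, 11.1% and 7.17% in WT replicates 1, 2 and 3, so that the KO libraries fell inside the WT range. All early telogen WT libraries were below all anagen WT libraries. In bulk RNA, fewer cells of a type and less of this RNA per cell cannot be told apart.

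**Figure D1:**
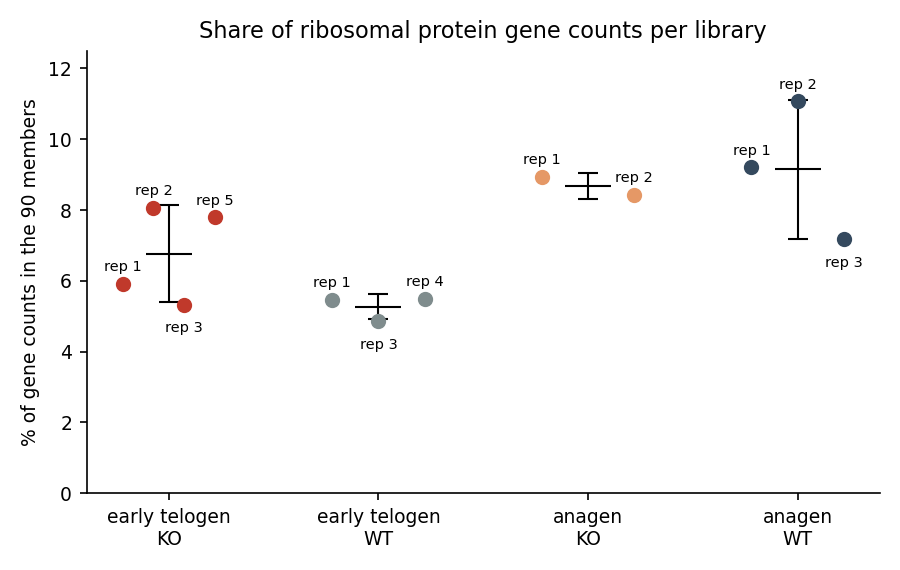
Share of all gene counts (percent, y axis) taken by the 90 ribosomal protein genes in each library, by stage and genotype. Points are libraries with their replicate number, and bars give the mean and SD; early telogen KO libraries spread from 5.32% to 8.06%, and anagen WT libraries from 7.17% to 11.1%.

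The core genes moved as a block between anagen WT libraries and, less fully, between early telogen KO libraries. Anagen WT replicate 2 held the highest CPM of its group for 76 of the 77 core genes and anagen WT replicate 3, the library with the conflicting age label, the lowest for 76. Among early telogen KO libraries, replicate 2 was highest for 49 and replicate 5 for 27 of the 77, and replicate 3 was lowest for 70. The other groups were more divided. Among early telogen WT libraries, replicate 1 was highest for 42 and replicate 4 for 32, and replicate 3 was lowest for 63. Of the anagen KO libraries, replicate 1 was highest for 51 and replicate 2 for 26. The balance of the subunits hardly varied: summed 60S counts were 1.20 to 1.27 times the summed 40S counts in the 12 libraries. After TMM scaling, which corrects totals for composition, the share was 5.61% to 7.89% in early telogen KO against 5.69% to 6.03% in early telogen WT libraries, and 7.82% to 8.35% in anagen KO against 7.05% to 11.2% in anagen WT libraries.

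Rplp0, the scaffold of the P stalk to which the RPLP1 and RPLP2 proteins attach, had the highest level of all members, with 1971 ± 389.7 CPM in early telogen KO and 1567 ± 94.7 CPM in early telogen WT libraries (SD, n = 4 and 3). In anagen it had 2760.4 ± 291 CPM in KO and 3246 ± 828 CPM in WT libraries (SD, n = 2 and 3). Per kilobase of annotated transcript, which puts genes of different length on one scale, Rplp1 led with a mean of 2842 CPM per kb over the 4 groups, before Rps14 with 2785 and Rps27 with 2490 CPM per kb. Rpl24, a large-subunit protein at the interface with the small subunit whose mutation causes the Bst (belly spot and tail) phenotype in mice, stood near the other end of the core genes with 156 CPM per kb, where Rps15a alone, to which the annotation gives a transcript of 5179 nt, was lower with 86.7. The median of the core genes was 956 CPM per kb in early telogen KO and 737 in early telogen WT, and 1265 in anagen KO and 1362 in anagen WT libraries. Reads placed at several positions were not counted, so genes with near-identical copies elsewhere in the genome are uncertain in level: 22 pseudogene rows carry the name of Rpl31 and 13 that of Rps19, whereas Rpl24, Rps20, Rplp2 and Rps27l have no pseudogene row by name. Only names with -ps were looked up, so copies named otherwise were missed, and the levels of these genes, Rpl24 among them, can be uncertain too.

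Whether loss of Foxc1 changed these genes was asked first in early telogen. None of the 84 members that passed the filter on low counts was called higher or lower in KO than in WT libraries (edgeR quasi-likelihood test, Benjamini-Hochberg adjusted p under 0.05), where 0.499% of all 12030 genes tested were called higher and 0.457% lower. No member had an unadjusted p under 0.05 either, and DESeq2 also called none and had none at that level. The log2 fold change was positive for 80 of the 84, with a median of 0.19 against 0.03 for all genes, but the median was 0.08 without KO replicate 5, and -0.07, with 28 of 81 positive, with a length offset. This offset is each library's trend on annotated transcript length, fitted on the genes that are no members. The KO libraries lay above every WT library for 14 of the 84 members, or 16.7%, against 9.75% of all genes, and below for none.

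The 3 highest log2 fold changes in early telogen belonged to Rps3a2, Rpl36a and Rpl22l1, and the 3 lowest to Rps19bp1, Rpl24 and Rps4y2. Rps3a2, a copy of Rps3a1, held 48 counts over the KO and 21 over the WT libraries. Rpl36a, a 60S protein near the tRNA exit site, had 259, 384, 238 and 369 CPM in KO replicates 1, 2, 3 and 5, against 225, 197 and 227 CPM in WT libraries. The groups did not overlap, but the difference missed the threshold (log2 fold change 0.35 ± 0.20 (SE), edgeR adjusted p = 0.527). Rpl22l1, the paralogue of Rpl22, had 88.7, 112, 78.3 and 118 CPM in KO and 64.2, 68.2 and 74.4 CPM in WT libraries, again without overlap and without passing (0.34 ± 0.18, edgeR adjusted p = 0.492). Rps19bp1 had the lowest value, with 16, 12.6, 14.9 and 19.2 CPM in KO and 19.4, 18.3 and 19.2 CPM in WT libraries (-0.45 ± 0.24, edgeR adjusted p = 0.495), and the groups overlapped through KO replicate 5. Rpl24 was the only core gene with a negative value (-0.26 ± 0.20, edgeR adjusted p = 0.664). By subunit the medians were 0.21 for the 31 40S genes, 0.18 for the 43 60S genes and 0.15 for the 3 P stalk genes.

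**Figure D2:**
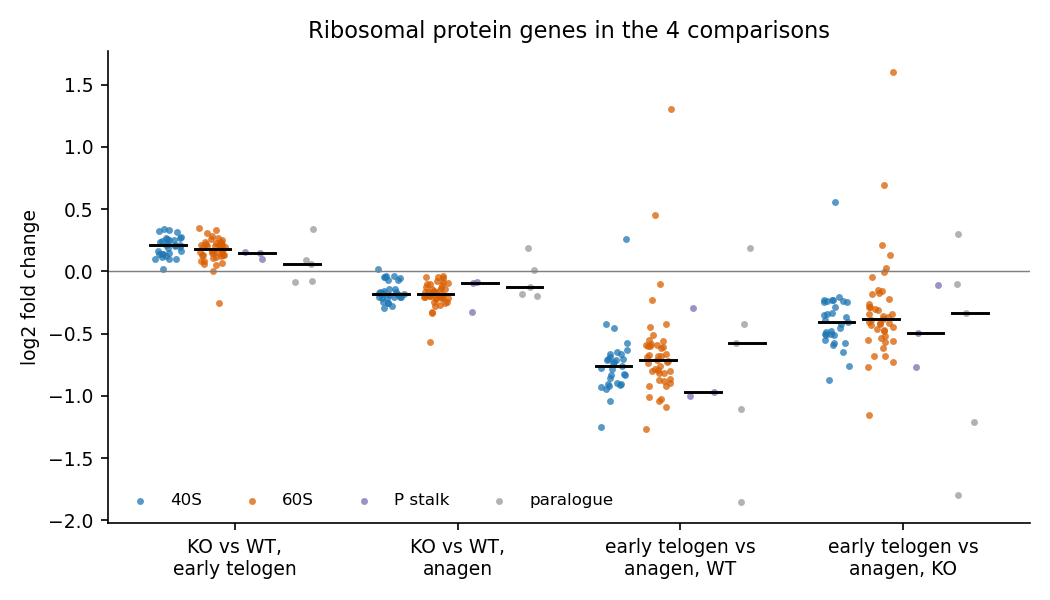
Log2 fold change (y axis) of each tested gene in the 4 comparisons, coloured by subunit, with black lines for the median of each group of genes. KO against WT values stay near 0 in both stages, whereas early telogen against anagen values lie mostly below 0, apart from a few genes led by the 60S gene Rpl24; Rps3a2, which has no anagen count, and Rps19bp1 are not drawn.

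In anagen the same question gave values of the other sign and again no call. None of 83 members tested passed in either direction, where 0% of all 14409 genes passed (edgeR). Even Foxc1, the deleted gene, missed the threshold in this fit (log2 fold change -8.19 ± 0.81, edgeR adjusted p = 0.0522). Of genes changed by 1 on the log2 scale in simulated data, 8% passed in this comparison and 26% in the early telogen one. The lack of calls in anagen thus does not show that the members were unchanged. DESeq2 also called no member, although it called 0.618% of all genes higher and 2.89% lower, and both tools gave 1 member an unadjusted p under 0.05. By edgeR this was Rpl24, with 51.6 and 46.4 CPM in KO and 63.7, 70.8 and 70 CPM in WT libraries. Every KO library was below every WT library, and the adjusted p was 0.343 (log2 fold change -0.57 ± 0.18). The log2 fold change was negative for 80 of the 83 members, with a median of -0.18 against 0.02 for all genes. That median was 0.01 without WT replicate 2 and -0.32 without WT replicate 3, the 2 libraries at the ends of the WT range. Of all entries that the counting tallied, 32.8% and 31.1% were placed at several positions and not counted in the KO libraries, against 24.7%, 20.1% and 25.8% in WT replicates 1, 2 and 3, and the part of this in the values was not tested. The KO libraries lay below every WT library for 1 member and above for 1, or 1.20% each, against 11.2% and 18.5% of all genes.

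The difference between the 2 KO effects was tested in 1 fit of all 12 libraries. None of 84 members passed, where 0.129% of all 13193 genes were called higher and 0.0152% lower (edgeR), and none had an unadjusted p under 0.05 by edgeR or DESeq2. The difference, early telogen minus anagen, was positive for 82 of the 84 with a median of 0.34 on the log2 scale. Over all genes 53.7% were positive, with a median of 0.04. The members' median ranged from 0.16 to 0.48 as each library was left out in turn. With the length offset it was 0.12, with 67 of 81 members positive.

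Set against anagen, early telogen libraries had lower values for most ribosomal protein genes in WT mice. Of 83 members tested, 60 were lower and 1 was higher, where 15.9% of all 12718 genes were called lower and 13.6% higher (edgeR adjusted p under 0.05), and 22 did not pass. The calls comprised 27 of 31 genes of the 40S subunit, 29 of 43 of the 60S subunit and 2 of 3 of the P stalk, all lower, and Rpl24 as the only gene called higher. The median log2 fold change was -0.72 against -0.10 for all genes, but it was 0.16 with the length offset. With this offset 3 of 81 members were lower and 11 higher, where 1127 of all 11315 genes were lower and 1312 higher. Of 58 genes called lower that have an annotated length, 3 remained so with the offset: Rpl15, Rps15a and Rps20. The offset rests on annotated length, and these have long transcripts of 1922, 5179 and 3706 nt, against a members' median of 819 nt. Without the offset, the call of Rps15a held in only 1 of 6 fits with 1 library left out, and it was lost with sex as a covariate. Leaving out 1 library at a time gave 21 to 72 lower members, with 21 without early telogen WT replicate 4, 24 without replicate 3, 30 without replicate 1 and 35 without anagen WT replicate 2, and 18 of the 61 calls held in all 6 such fits. Early telogen WT libraries lay below every anagen WT library for 76 of the 83 members, or 91.6%, against 31.9% of all genes. Markers of other cell states moved with stage too. Of 13 proliferation markers, 5 were lower and 2 higher in early telogen than anagen WT libraries, with 367 to 383 CPM in all in early telogen WT and 262 to 555 CPM in anagen WT libraries, and 7 were lower in early telogen than anagen KO libraries. The 6 melanocyte markers summed to 2.28 to 5.45 CPM in early telogen WT and 18.9 to 109 CPM in anagen WT libraries, and Mlana, Tyr and Sox10 were at 0 in 2 or more early telogen WT libraries. The part of these in the values was not tested.

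Transcript length moved with stage across the whole tables, and ribosomal protein mRNAs are short, with a median annotated length of 819 nt. Among all other genes in WT libraries, the median log2 fold change of early telogen against anagen was -0.90 for the 581 genes under 1000 nt and 0.26 for the 3571 genes of 4000 nt or more. Ribosomal protein genes under 1000 nt had a median of -0.72, and 75% of these 56 were called lower, against 48.4% of the other genes of that length. In KO libraries the other genes under 1000 nt had a median of -0.75 and the ribosomal protein genes of that length one of -0.39. The members were thus no lower, by their median, than other short genes in either genotype. From 1000 to below 2000 nt they were lower in WT, with a median of -0.73 for 20 members against -0.45 for 2364 other genes. In KO these medians were -0.41 and -0.36. From 2000 to below 4000 nt, 4 members had a median of -0.50 in WT and -0.10 in KO, against -0.10 and -0.06 for other genes. The members' medians in WT thus did not climb from the first class to the second as those of other genes did.

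**Figure D3:**
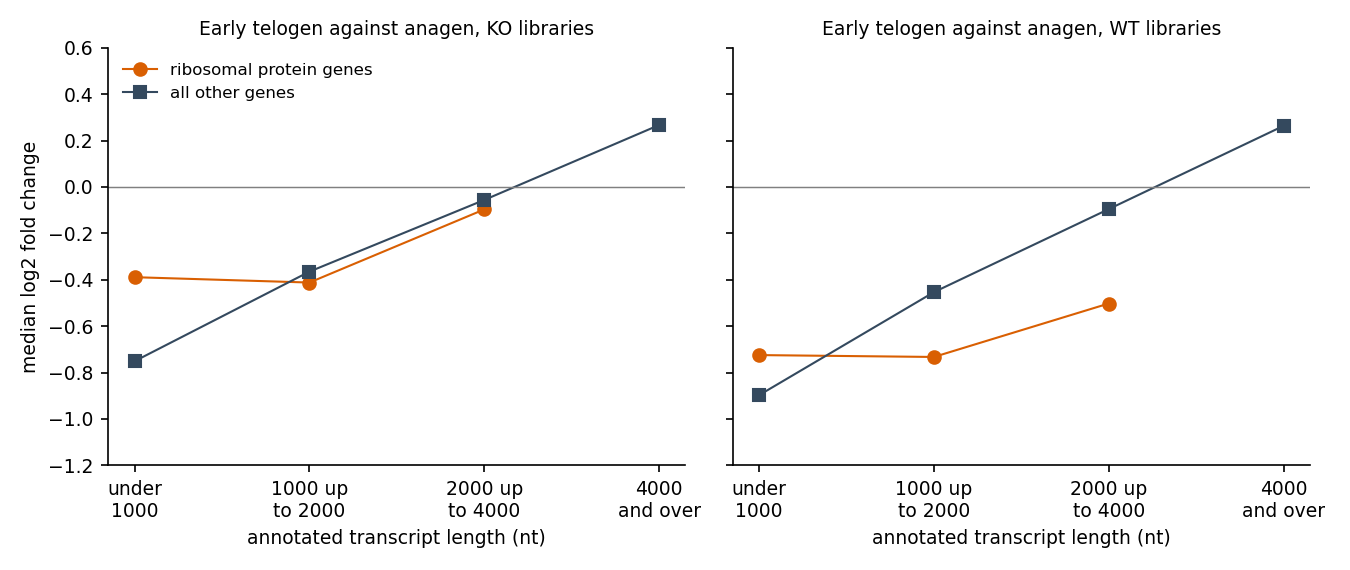
Median log2 fold change of early telogen against anagen (y axis) by class of annotated transcript length in nt (x axis), in KO libraries on the left and WT libraries on the right. The line for all other genes climbs with length. Ribosomal protein genes under 1000 nt sit above that line in both genotypes, and those from 1000 to below 4000 nt sit below it, only slightly in KO. The single member of 4000 nt or more is not drawn.

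KO libraries gave fewer calls for the same stage comparison, but the test recovered less there. Of genes changed by 1 on the log2 scale in simulated data, 7% passed in this comparison and 23% in the WT one. The number of calls therefore does not measure a difference between the genotypes. Of 84 members tested, 6 were lower and 2 higher, where 12% of all 12771 genes were called lower and 10.2% higher (edgeR). The 6 were Rpl15, Rpl27, Rpl29, Rps20, Rps27l and Rps4y2, and all 6 were also among the 60 called lower in WT. The 2 higher were Rpl24 and the copy Rps3a2. Rps3a2 had 0 counts in both anagen KO libraries and 3 to 24 in each early telogen KO library. It passed the filter only through the early telogen libraries, so the direction of its call was fixed in advance. The members' median was -0.39, and with the length offset it was 0.27. With this offset 1 of 81 members was lower and 8 were higher, where 1138 of all 11342 genes were lower and 1085 higher. Leaving out 1 library at a time gave 2 lower members without either anagen KO replicate and 3 without early telogen KO replicate 1 or 3. Early telogen KO libraries lay below both anagen KO libraries for 52 of the 84 members, or 61.9%, against 25% of all genes. The difference between the genotypes in this change is the contrast tested over all 12 libraries, in which no member passed.

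**Figure D4:**
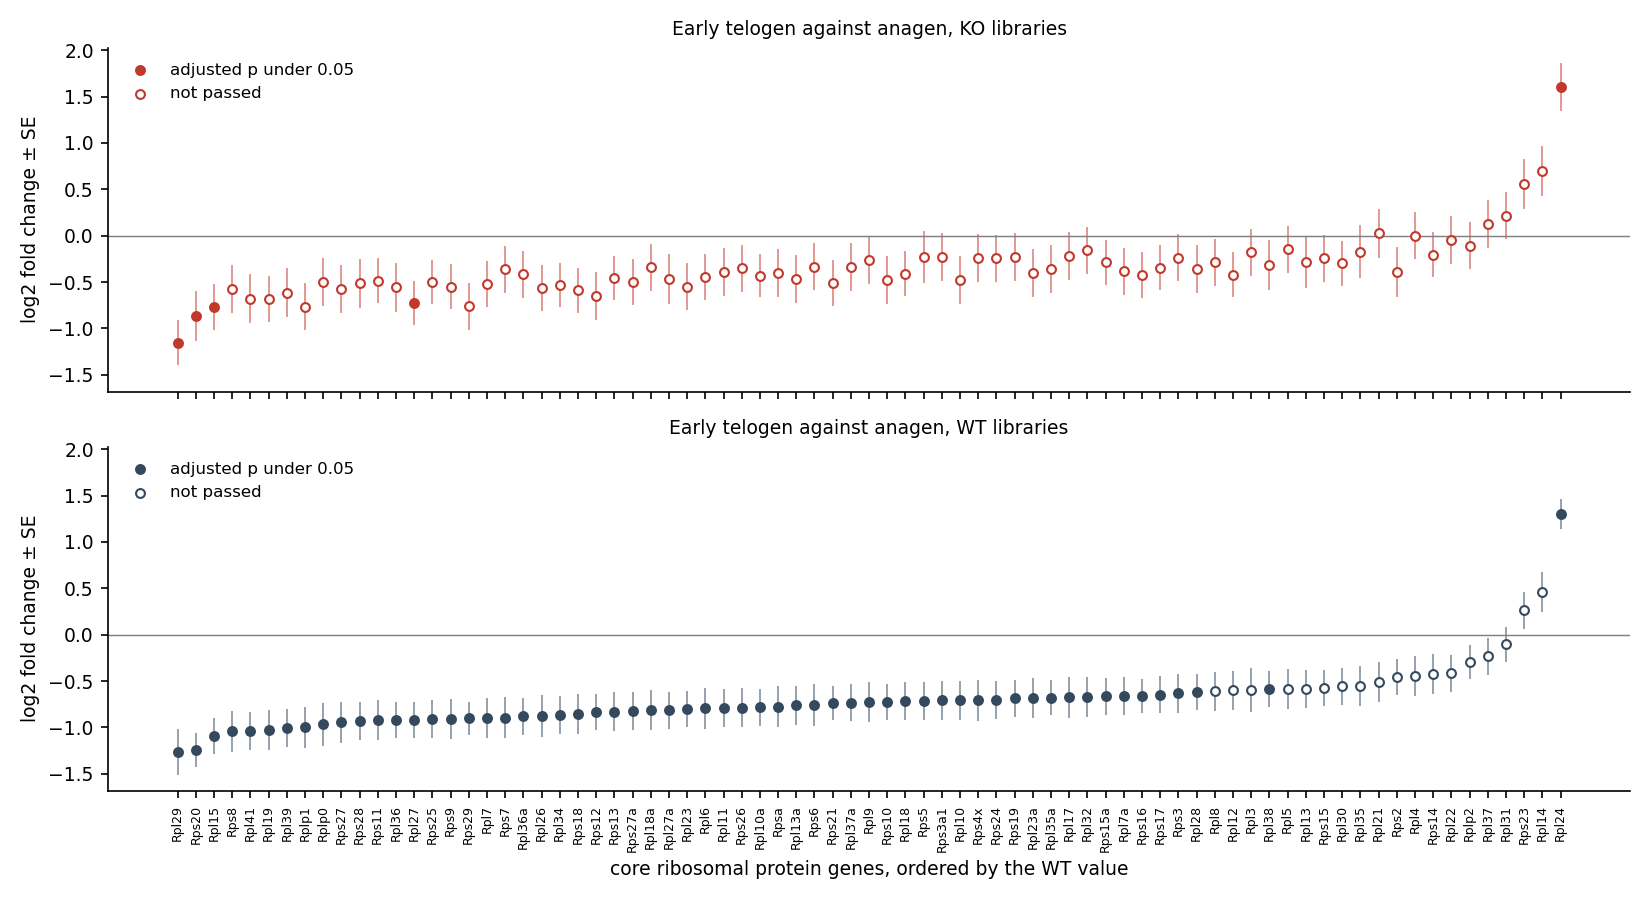
Log2 fold change of early telogen against anagen with its SE (y axis) for the 77 core genes, ordered by the WT value, in KO libraries above and WT libraries below. Filled points passed the edgeR test; Rpl24 is the one filled point above 0 in both genotypes, and 58 core genes passed below 0 in WT against 4 in KO.

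Rpl24 went the opposite way to most core genes: of the 77, 71 had negative values in KO and 74 in WT. With the length offset, however, 68 of 81 members were positive in KO and 55 of 81 in WT. It had 171, 130.4, 154 and 135 CPM in early telogen KO replicates 1, 2, 3 and 5, against 51.6 and 46.4 CPM in anagen KO libraries. It had 143, 170.0 and 159.5 CPM in early telogen WT libraries, against 63.7, 70.8 and 70 CPM in anagen WT libraries. Every early telogen library lay above every anagen library. The log2 fold change was 1.60 ± 0.26 in KO (edgeR adjusted p = 0.00185) and 1.30 ± 0.16 in WT (edgeR adjusted p = 0.00121). It passed without each library in turn in both genotypes, and it was 2.39 in KO and 2.25 in WT with the length offset. Relative to the summed counts of the 90 genes it was 2.02 in KO and 1.97 in WT.

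Rpl14, a 60S protein, and Rps23, a 40S protein at the decoding centre, were singled out after their values were seen, because they stood next to Rpl24 in that order. Rpl14 had 583, 895, 558 and 831 CPM in early telogen KO against 476 and 400.2 CPM in anagen KO libraries, with no overlap (log2 fold change 0.70 ± 0.27, edgeR adjusted p = 0.0884). It had 581, 602 and 703 CPM in early telogen WT against 489, 602 and 368 CPM in anagen WT libraries, where the groups overlapped (0.46 ± 0.22, edgeR adjusted p = 0.14). Relative to the summed members Rpl14 passed in both genotypes, with 1.06 ± 0.32 in KO and 1.17 ± 0.24 in WT (edgeR adjusted p = 0.034 and 0.00388). Rps23 had 639.7, 854, 594 and 942 CPM in early telogen KO against 509.6 and 516 CPM in anagen KO libraries, and 636, 561 and 633 CPM in early telogen WT against 515, 669 and 432 CPM in anagen WT libraries. It did not pass in KO (0.56 ± 0.27, edgeR adjusted p = 0.161) or WT (0.26 ± 0.20, edgeR adjusted p = 0.357), but its share of the ribosomal protein counts was higher in early telogen WT libraries (0.97 ± 0.24, edgeR adjusted p = 0.00893).

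**Figure D5:**
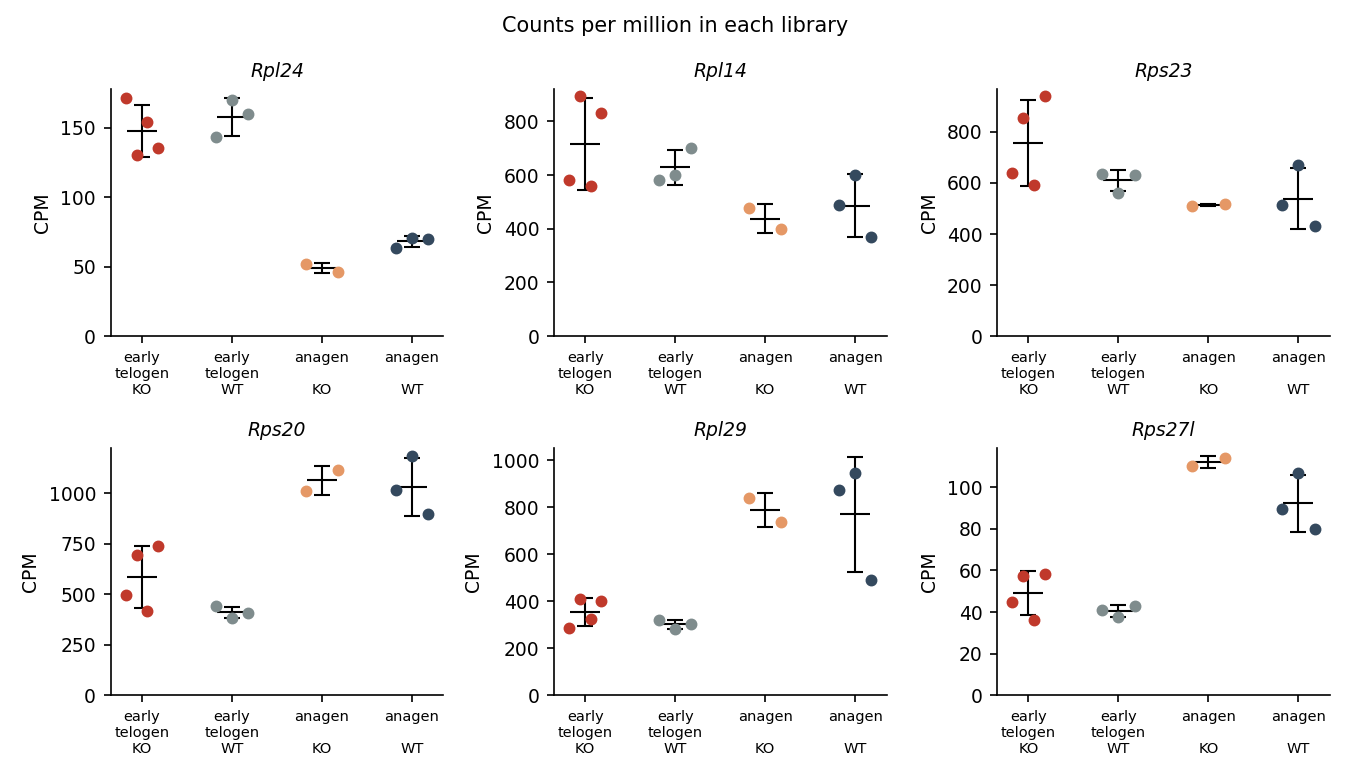
CPM (y axis) of 6 ribosomal protein genes in each of the 12 libraries, by stage and genotype; points are libraries and bars give the mean and SD. Rpl24 is higher in all early telogen libraries than in all anagen libraries, whereas Rps20, Rpl29 and Rps27l are higher in all anagen libraries.

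At the other end of the order stood Rps20, Rpl29 and Rpl15. Rps20, a protein of the head of the 40S subunit, had 498, 694, 419 and 740.4 CPM in early telogen KO against 1014 and 1116 CPM in anagen KO libraries. It had 440.2, 383 and 410.1 CPM in early telogen WT against 1019, 1184 and 898 CPM in anagen WT libraries, and the stages did not overlap in either genotype. The log2 fold change was -0.87 ± 0.27 in KO (edgeR adjusted p = 0.0404) and -1.25 ± 0.18 in WT (edgeR adjusted p = 0.00185). With the length offset it was -0.93 in KO and -1.32 in WT and passed in both, but the annotation gives Rps20 a transcript of 3706 nt, far above the members' median. In KO the call was lost without either anagen KO replicate or without early telogen KO replicate 1 or 3 (edgeR adjusted p up to 0.167).

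Rpl29, a small basic 60S protein, had 288, 409, 324 and 402 CPM in early telogen KO against 841 and 738 CPM in anagen KO libraries. It had 322, 284 and 304 CPM in early telogen WT against 874, 946 and 491 CPM in anagen WT libraries. Again no library of one stage reached the other, with a log2 fold change of -1.15 ± 0.24 in KO and -1.26 ± 0.25 in WT (edgeR adjusted p = 0.00756 and 0.00594). With the length offset it was -0.46 in KO and -0.34 in WT and passed in neither. Rpl15, a 60S protein of the ribosome core, had 648, 938, 642 and 865 CPM in early telogen KO against 1302 and 1316 CPM in anagen KO libraries, and 589, 513 and 581 CPM in early telogen WT against 1341, 1446 and 1014 CPM in anagen WT libraries. Its log2 fold change was -0.77 ± 0.25 in KO and -1.09 ± 0.19 in WT (edgeR adjusted p = 0.0454 and 0.00407), and with the length offset it was -0.78 in WT, which still passed, and -0.52 in KO, which did not (edgeR adjusted p = 0.13). The KO call was also lost without either anagen KO replicate or without early telogen KO replicate 1 or 3 (edgeR adjusted p up to 0.169), and with DESeq2's size factors (edgeR adjusted p = 0.0531).

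The P stalk genes code for proteins that recruit the GTPases of elongation. Rplp0 was lower in early telogen WT than in anagen WT libraries (-0.97 ± 0.23, edgeR adjusted p = 0.0128), but not with the length offset (-0.45, edgeR adjusted p = 0.141) or without early telogen WT replicate 4 (edgeR adjusted p = 0.0511). Rplp1 was lower as well (-1.0 ± 0.23, edgeR adjusted p = 0.0104), but it was 0.15 with the length offset. Rplp2 had 537, 436 and 503 CPM in early telogen WT against 679, 714 and 522 CPM in anagen WT libraries, which overlap, and did not pass (-0.29 ± 0.18, edgeR adjusted p = 0.257); with the length offset it was 0.44. In KO libraries none of the 3 passed.

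Members with a second role beside the ribosome were mostly lower in early telogen WT libraries, but Rps6, Rps27a, Rps19 and Rpl11 had log2 fold changes of 0.04 to 0.30 with the length offset, and Rpsa did not pass with it (-0.47, edgeR adjusted p = 0.129). Rps6, whose protein the S6 kinases phosphorylate under mTORC1, had 923, 901 and 970.2 CPM in early telogen WT against 1703, 2100.2 and 1206 CPM in anagen WT libraries (-0.76 ± 0.23, edgeR adjusted p = 0.0328). Rps27a, which codes for a ubiquitin fused to a 40S protein, was lower in the same comparison (-0.82 ± 0.21, edgeR adjusted p = 0.0157), and so were Rpsa, known also as a laminin receptor (-0.77 ± 0.22), and Rps19, a gene mutated in Diamond-Blackfan anaemia (-0.69 ± 0.20; edgeR adjusted p = 0.0266 and 0.0282). Rpl11 and Rpl5 bind MDM2 together when ribosome assembly fails. Rpl11 was lower (-0.79 ± 0.20, edgeR adjusted p = 0.0179) and Rpl5 did not pass (-0.59 ± 0.21, edgeR adjusted p = 0.0652). With 1 library left out in turn, the WT calls of Rps6, Rpsa and Rps19 each held in only 1 of 6 fits (edgeR adjusted p up to 0.0962). These calls were also lost with sex as a covariate. The calls of Rps27a and Rpl11 held in 4 of 6 fits. In KO libraries these 6 genes had log2 fold changes of -0.50 to -0.15 and none passed.

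Of the 12 paralogues and copies, 5 were expressed at a level that could be compared in every fit. Rps27l, a paralogue of Rps27 that p53 induces, had 45, 57.1, 36 and 58.2 CPM in early telogen KO against 110.1 and 114 CPM in anagen KO libraries, and 41.2, 37.5 and 42.9 CPM in early telogen WT against 89.5, 107 and 80.1 CPM in anagen WT libraries. The stages were apart in both genotypes, and Rps27l passed as lower in KO (-1.21 ± 0.22, edgeR adjusted p = 0.00393) and WT (-1.10 ± 0.17, edgeR adjusted p = 0.00235), without each library in turn as well, but with the length offset it was -0.31 in KO and 0.03 in WT and passed in neither. As a ratio to Rps27 it was 6.82% ± 0.666 in early telogen KO against 10.5% ± 0.0986 in anagen KO libraries (SD, n = 4 and 2), and 7.54% ± 0.905 in early telogen WT against 8.47% ± 0.795 in anagen WT libraries (SD, n = 3 each). Rpl22l1 stood at 21.4% ± 1.08 of Rpl22 in early telogen KO and 19.4% ± 1.21 in early telogen WT libraries, and at 22.1% ± 2.12 in anagen KO and 19.7% ± 1.25 in anagen WT libraries, so that KO and WT libraries overlapped in early telogen, whereas both anagen KO libraries lay above all anagen WT libraries. Rpl36al had 44.9% ± 5.54 of the counts of Rpl36a in early telogen KO and 54.0% ± 2.52 in early telogen WT libraries, with no overlap. Rpl7l1, a paralogue of Rpl7, had 6.67% ± 2.08 of the counts of Rpl7 in early telogen KO and 7.85% ± 0.468 in early telogen WT libraries, with overlap.

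Rps4y2 is the table's name for a transcribed pseudogene that RefSeq lists as Rps4l on chromosome 6. It fell in both genotypes to 4.88 ± 2.43 CPM in early telogen KO, against 17.7 ± 4.27 CPM in anagen KO libraries (SD, n = 4 and 2), and to 4.68 ± 1.57 CPM in early telogen WT, against 18 ± 6.73 CPM in anagen WT libraries (SD, n = 3 each). The log2 fold change was -1.80 ± 0.44 in KO and -1.85 ± 0.38 in WT (edgeR adjusted p = 0.0154 and 0.00767). The WT call held in all 6 fits with 1 library left out, but the KO call was lost without anagen KO replicate 2. Rps4y2 has no annotated length here, so it was not fitted with the length offset. Rps3a2 had no count in the 5 anagen libraries, and 48 counts in early telogen KO and 21 in early telogen WT libraries. Against a floor of 3 counts over the group, these were at least 30.5-fold higher in early telogen KO than anagen KO libraries and at least 29.4-fold higher in early telogen WT than anagen WT libraries. A gene at 0 in one table and not in the other cannot be told apart from a difference in how the tables were counted. Rpl10l and Rps12l1 had no count in any library, and Rpl3l, Rpl39l, Rps12l2 and Rps3a3 had at most 19 counts in any group, too few to compare.

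Among genes that act around the ribosome, many assembly factors were higher in early telogen than in anagen. Of 56 ribosome biogenesis factors tested, 29 were higher and 1 lower in early telogen than anagen WT libraries, where 13.6% of all genes were higher and 15.9% lower. Their median log2 fold change was 0.62. In KO libraries 13 of these factors were higher and none lower, with a median of 0.61, where 10.2% of all genes were higher and 12% lower. With the length offset 30 of 55 were higher in WT and 13 of 55 in KO, and none was lower in either, with medians of 0.66 in KO and 0.68 in WT; the medians of the ribosomal proteins were then positive as well. Nop56, a core protein of box C/D snoRNPs, had 238 ± 50 CPM in early telogen KO against 110 ± 13 CPM in anagen KO libraries (1.13 ± 0.29, edgeR adjusted p = 0.0193), and 264 ± 35 CPM in early telogen WT against 129 ± 29 CPM in anagen WT libraries (1.11 ± 0.19, edgeR adjusted p = 0.00362). Heatr1, which acts in early processing of the pre-rRNA, was higher in early telogen WT than anagen WT libraries (1.48 ± 0.25, edgeR adjusted p = 0.00365), and Gnl3 (nucleostemin) in early telogen KO than anagen KO libraries (1.47 ± 0.32, edgeR adjusted p = 0.00947).

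Mitochondrial ribosomal proteins, which are also short, included many genes called lower. Of 75 tested, 22 were lower in early telogen than anagen KO libraries and 35 in WT libraries, where 12% of all genes were lower in KO and 15.9% in WT. Their medians were -0.75 in KO and -0.77 in WT, and none was higher. With the length offset 8 were lower in KO and 11 in WT, with none higher and medians of -0.33 in KO and -0.26 in WT, whereas the medians of the cytoplasmic ones were positive. Mrps33 was lower in both, with 9.24 ± 4.4 CPM in early telogen KO against 27.4 ± 4.1 CPM in anagen KO libraries and 6.12 ± 1.7 CPM in early telogen WT against 22.7 ± 2.9 CPM in anagen WT libraries. Of 19 translation factors and other TOP mRNAs, 7 were lower and 1 higher in early telogen WT libraries, led by Eif3f, a subunit of an initiation factor (-1.09 ± 0.21, edgeR adjusted p = 0.00507), and none passed in KO. Of 18 with the length offset, 1 was lower and 2 were higher in WT, with a median of -0.03, and 1 was higher in KO.

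Regulators of ribosomal protein synthesis were called in both directions. Of 27, 8 were higher and 4 lower in early telogen than anagen WT libraries, where 13.6% of all genes were higher and 15.9% lower. In KO libraries 3 regulators were higher and 2 lower, where 10.2% of all genes were higher and 12% lower. Of 26 regulators with the length offset, 4 were higher and 3 lower in WT, and 1 was higher and 1 lower in KO. Rps6kb1, an S6 kinase, was higher in KO (0.98 ± 0.25, edgeR adjusted p = 0.0182) and WT (0.86 ± 0.16, edgeR adjusted p = 0.00434), and Pdcd4, a translation inhibitor that this kinase marks for decay, was lower in KO (-0.95 ± 0.27, edgeR adjusted p = 0.031) and WT (-0.90 ± 0.18, edgeR adjusted p = 0.00655), but with the length offset Pdcd4 did not pass in KO (-0.79, edgeR adjusted p = 0.0598). Of 12 genes of the p53 response, 1 was higher and 1 lower in KO and 2 were higher and 1 lower in WT, and the lower calls were lost with the length offset. These p53 counts were too small to tell apart from the shares of all genes. Sesn2, a p53 target that restrains mTORC1, was higher in early telogen KO than anagen KO libraries (1.91 ± 0.36, edgeR adjusted p = 0.0047) and in early telogen WT than anagen WT libraries (1.89 ± 0.15, edgeR adjusted p = 0.000222). Of 8 snoRNA host genes, 1 (Snhg12) was higher in WT and none passed in KO.

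Between KO and WT libraries, no gene of these 6 lists passed at either stage. The nearest to the threshold in early telogen among the regulators was Myc, a driver of ribosome production, with 465 ± 17 CPM in KO and 728 ± 150 CPM in WT libraries (-0.82 ± 0.22, edgeR adjusted p = 0.111). Biogenesis factors had a median log2 fold change of -0.19 in early telogen and -0.22 in anagen, with 43 of 56 and 48 of 63 negative. Proliferation markers gave the contrast: 6 of 13 were higher in early telogen KO than early telogen WT libraries, and none passed in anagen.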

How the data were processed

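Poly(A)-selected RNA of sorted cells was sequenced with a directional kit, per the labels' protocols. The authors deposited raw counts per gene from HTSeq after TopHat2 alignment to mm10, per the submitters' processing notes; versions and the strand setting are not given in the sources used here. The anagen table also tallies reads placed at several positions, which were left out of the gene counts. In the early telogen table, 3 broken lines were left out. Members and lists were chosen with earlier results of these data known. CPM was computed over gene rows. edgeR 4.0.16 (R 4.3.3; filterByExpr with minimum count 10 and minimum total 15, TMM, robust quasi-likelihood F-test) was fitted on all genes, with Benjamini-Hochberg adjustment over all of them; genotype was tested within each table and stage over shared names. Standard errors are the log2 fold change over the square root of F. Named were up to 15 members called per direction and comparison, the 3 highest and 3 lowest where none was called, the extremes of level, P stalk genes, paralogue pairs and members with a second role (46 in all), plus 4 chosen after their values were seen. Transcript lengths are medians of GENCODE M21 principal transcripts linked to RefSeq. Alternatives were DESeq2 1.42.0, other scalings and filters, covariates, replicate blocks, left-out libraries and, added after seeing the data, the summed members as library size, a lowess trend on length as an offset, and early telogen KO replicates 2 and 5 left out together, the 2 of that group with the highest summed members. Scripts were tested on simulated data, drawn with the depth and dispersions of the libraries of each comparison. In each, 100 genes were changed by 1 and 100 by 2 on the log2 scale. No 2 libraries were copies of each other.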

Additional observations from a re-analysis of the deposited data

Results flagged for a closer look

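The share of gene counts in mitochondrial transcripts was 2.35% in early telogen KO replicate 5, against 1.62% to 1.74% in the other 3 early telogen KO libraries, a gap large enough to set that library apart. Replicate 5 is also the KO library with the fewest counts and with a ribosomal protein share of 7.79%. Of 59 sets of values examined in this way it was the only one that stood apart, and chance sets apart about 1 in 20.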

How the results depend on the processing

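In KO against WT no member passed under any alternative at either stage. With the replicate block the median log2 fold change was -0.00066 in early telogen and 0.018 in anagen. Same-numbered early telogen libraries deviated together by r = 0.159 and 0.09, and same-day anagen libraries by 0.527 and 0.425, over 2 pairs each, which does not show that the numbers pair the libraries, and the block changed no call. In early telogen the median was -0.0062 relative to the summed members, -0.0700 with the length offset and -0.018 without KO replicates 2 and 5. These 2 were chosen for their high summed members, so the choice fixes that the median falls. With library totals and no TMM the members' median was 0.36 and that of all genes 0.21. In anagen, where edgeR called no gene, the day block called 46 genes higher and 207 lower, and DESeq2 89 higher and 417 lower, none of them members. For early telogen against anagen in WT, 35 members were lower with sex as a covariate, and 2 were higher with no filter on low counts or with all 12 libraries in 1 fit. Relative to the summed members 5 were higher and 1 lower (median -0.012), and Rpl10 (0.0073), Rps19 (0.021), Rps3 (0.072) and Rps4x (0.0078) changed sign. With the length offset 11 were higher and 3 lower (median 0.16), and 50 of 81 signs changed, among them, of the named members called with or without the offset, Rpl10 (0.16), Rpl11 (0.0408), Rpl22l1 (0.65), Rpl27 (0.0857), Rpl31 (0.58), Rpl36 (0.38), Rpl36a (0.28), Rpl36al (0.53), Rpl37 (0.60), Rpl39 (0.0159), Rpl41 (0.15), Rplp1 (0.15), Rps19 (0.30), Rps27 (0.45), Rps27a (0.0469), Rps27l (0.0279), Rps28 (0.36), Rps29 (0.37), Rps4x (0.0296) and Rps6 (0.0536). In KO, 10 were lower by DESeq2, with 3 higher, and 11 lower and 3 higher with all 12 libraries in 1 fit. Relative to the summed members, 1 was lower and 3 were higher (median -0.018). With the length offset 1 was lower and 8 were higher (median 0.27), and 60 of 81 signs changed, among them, of the named members called with or without the offset, Rpl22l1 (0.74) and Rpl27 (0.0634). Without early telogen KO replicates 2 and 5, 31 were lower and 1 higher (median -0.64), a direction that this choice also fixes. The difference of the KO effects had a median of 0.00097 relative to the summed members. Leaving out 1 library at a time gave 1 to 2 higher and 21 to 72 lower members in WT (median -0.85 to -0.55) and 1 to 2 higher and 2 to 7 lower in KO (median -0.51 to -0.31). Medians ranged from 0.08 to 0.26 in early telogen KO against WT, from -0.32 to 0.01 in anagen KO against WT, and from 0.16 to 0.48 for the difference. Of the values named above and in the comparisons, 1541 of the left-out fits kept direction and call, 59 lost the call and 9 gained one. The cause of these changes was not tested. Of all genes, the fit with the length offset called 1312 of 11315 higher and 1127 lower in WT, and 1085 of 11342 higher and 1138 lower in KO. Copies of low count, at most 19 in a group, limit what depth can show.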
